A study of Rattus norvegicus with 8 samples.

Results

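The receptors and ligands described here are 9 genes of neurotrophin and glial cell line-derived neurotrophic factor (GDNF) signalling: Ntrk2, Ntrk3, Ngfr, Ret, Gfra1, Gfra2, Gfra3, Bdnf and Gdnf. They were chosen by name, and each was read from the probe set that carried its symbol alone. Each of the 9 had 1 such probe set, and they were 9 of the 14497 genes measured. Expression was measured in the injured ipsilateral L5 dorsal root ganglion (DRG) of adult male Wistar rats 14 days after the L5 spinal nerve was ligated and transected. One group of 4 received MS-275, an inhibitor of class I histone deacetylases (HDACi), at 30 nmol per day. The other 4 received vehicle, dimethyl sulfoxide in saline solution. In both groups delivery was intrathecal, by a catheter to the lumbar spinal cord and an osmotic pump. The 8 RNA samples were each put on an Affymetrix array (Rat Gene 1.0 ST), which reports 1 log2 signal per probe set after robust multiarray averaging (RMA). The study's methods call the 4 samples of a group biological replicates. Every ganglion was injured, so the arrays compare drug with vehicle after injury and hold no uninjured level. The paper reports that the drug seemed not to reach these ganglia in detectable amounts, and saw no clear change in their histone acetylation. The arrays do not measure how much drug reached the ganglion.

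Sensory neurons of the DRG depend on trophic factors from their targets and from the glia around them, and each class of neuron carries its own receptors. Neurotrophins such as brain-derived neurotrophic factor (BDNF, from Bdnf) bind Trk receptor tyrosine kinases, among them TrkB (Ntrk2) and TrkC (Ntrk3), and all neurotrophins bind p75 (Ngfr). Ligands of the GDNF family bind a coreceptor on the membrane (GFRα1 to GFRα3, from Gfra1, Gfra2 and Gfra3), and the pair then engages the receptor tyrosine kinase RET. Cutting the peripheral axon takes away the supply from the target.

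RefSeq (build GRCr8) gave a start site for 5 of the 9 genes, namely Bdnf, Gdnf, Ret, Gfra1 and Gfra3, and 6 of its 10 entries were alternative starts of Bdnf. The 150 bases before the start are shown, 5′ to 3′, for Ret and Gfra3, the receptor genes with the highest correlations with a score of neuronal genes given further on, which did not pass adjustment. Capitals mark the GC box core GGCGG or its reverse complement CCGCC, a motif that Sp1 factors can bind. The windows are chr4:153040557-153040706 for Ret and chr18:26600226-26600375 for Gfra3, both on the minus strand.
Ret: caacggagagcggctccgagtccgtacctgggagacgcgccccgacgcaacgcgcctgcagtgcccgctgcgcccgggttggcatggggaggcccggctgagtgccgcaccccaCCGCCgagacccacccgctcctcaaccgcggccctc
Gfra3: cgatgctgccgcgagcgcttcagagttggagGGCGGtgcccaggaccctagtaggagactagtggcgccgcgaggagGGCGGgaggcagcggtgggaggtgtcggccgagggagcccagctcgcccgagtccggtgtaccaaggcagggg
The Ret window was 75.3% G and C and held 20 CpG dinucleotides, and the Gfra3 window was 71.3% G and C and held 15. The median over all 33469 start sites was 4. Ret had 1 GC box core and Gfra3 had 2, and 37.5% of all windows of this length had at least 1.

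The ligand genes are shown for the half-site of the cyclic AMP response element (CRE), TGACG or its reverse complement CGTCA, which each of them holds close to a start. Capitals also mark the GC box core and the TATA box TATAAA (reverse complement TTTATA). The windows are chr3:116637708-116637857 for 1 of the 6 Bdnf starts and chr2:58621177-58621326 for Gdnf, both on the plus strand.
Bdnf: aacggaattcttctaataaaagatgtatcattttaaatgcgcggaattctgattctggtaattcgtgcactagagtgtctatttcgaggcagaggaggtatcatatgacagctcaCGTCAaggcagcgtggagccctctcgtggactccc
Gdnf: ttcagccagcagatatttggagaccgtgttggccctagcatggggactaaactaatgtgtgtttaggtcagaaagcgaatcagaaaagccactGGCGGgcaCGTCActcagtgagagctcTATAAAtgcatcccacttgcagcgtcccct
A CRE half-site began 35 bases before this Bdnf start and 49 bases before the Gdnf start, and 13.4% of all windows held one. The other 5 Bdnf windows held none. Gdnf also had a TATA box 30 bases before its start, as did 8.0% of windows somewhere in theirs. The motif matches describe these letters only. The arrays gave 1 value per gene, which pools the Bdnf starts and the isoforms of Ntrk2 with and without a kinase domain.

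Markers of the labelled tissue were detected at moderate to high signal, though levels of different probe sets are not strictly comparable. All 18 measured markers of sensory neurons, led by Stmn2, Tubb3 and Nefl, lay above the median probe set, as did all 8 of satellite glia and all 8 of myelinating Schwann cells. Most markers of macrophages (11 of 12), fibroblasts and meninges (8 of 9) and skeletal muscle (12 of 17) did too, and all 9 of endothelial cells and pericytes. Of 6 measured markers of central nervous system glia, 1 did. A signal above the median is thus not particular to markers of DRG cells. Skeletal muscle genes set some arrays apart. A muscle score, the mean over 17 of 20 listed genes of each value minus its mean over all arrays, was 2.58, 1.48 and 0.70 (log2) in vehicle replicates 1, 2 and 4. It lay between -1.22 and -0.80 in HDACi and at -1.08 in vehicle replicate 3. HDACi replicate 4 stood highest in the macrophage score (0.49 against -0.16 to 0.09 elsewhere, 12 of 12 genes) and in the score of fibroblasts and meninges (0.40 against -0.30 to 0.11, 9 of 12 genes). Values that rest on vehicle replicate 1 or 2 or on HDACi replicate 4 are therefore also given without them.

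None of the 9 genes passed the test between the groups after adjustment. By limma, fitted to all 28826 probe sets, the adjusted p was 1.0 for each of them, and 0 of all probe sets (0.0%) passed the threshold of 0.05. With unadjusted p-values 0 of 9 passed it in either direction, against 3.55% of all probe sets, 1.93% lower and 1.61% higher in HDACi. The groups overlapped for all 9 genes, while 2.1% of all probe sets had groups that did not overlap. Differences (HDACi minus vehicle) ran from -0.16 to 0.16 on the log2 scale. Of the 9, 6 were below 0, counting Gfra1, which rounded to 0.00, against 46.7% of all probe sets. The median of the 9 was -0.047, and that of all probe sets was 0.005. Taken gene by gene, the 95% confidence intervals of this fit reached down to 0.788-fold (Ret) and up to 1.37-fold (Gfra2). They do not hold for the 9 genes jointly or for other settings of the fit. In bulk tissue, fewer cells of a type and less RNA per cell cannot be told apart.

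**Figure D1:**
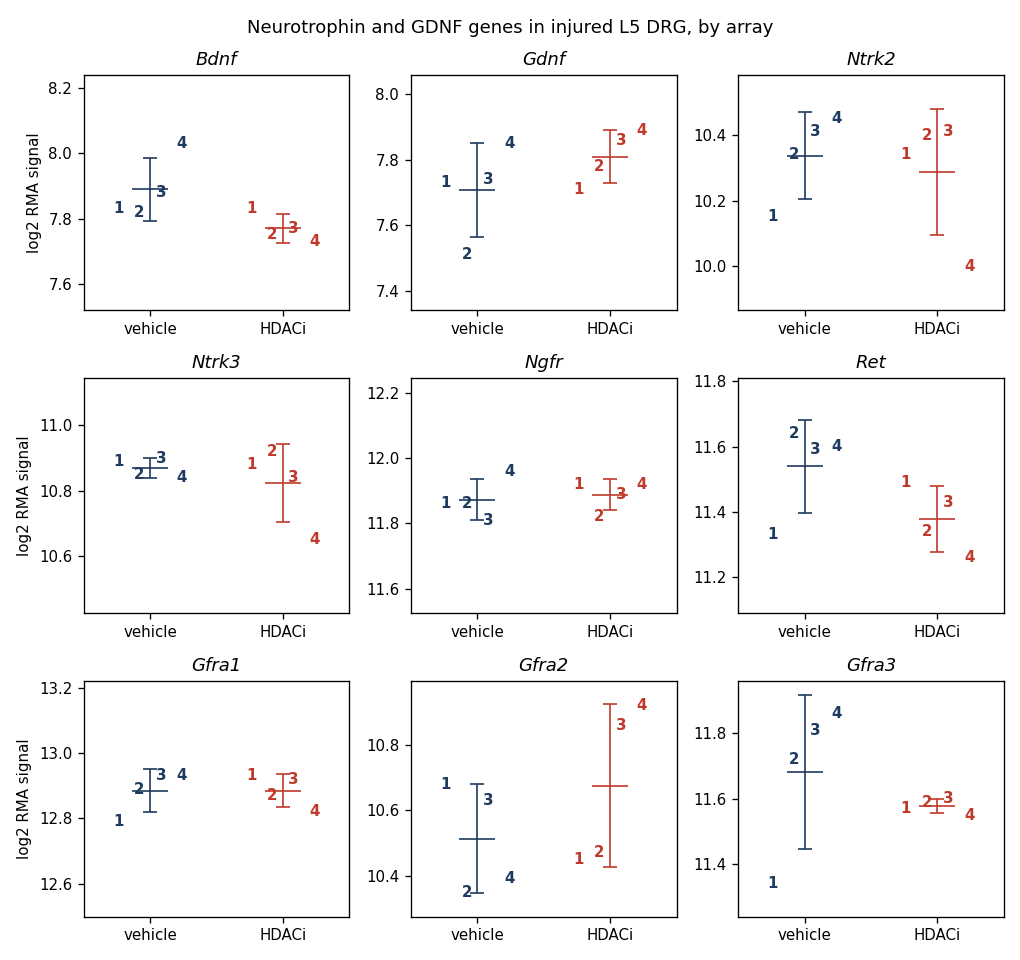
Log2 RMA signal of the 9 genes per array, with vehicle in dark blue and HDACi in red, numerals for the replicate numbers, long ticks for the group means and bars for ± 1 SD (n = 4). Every panel spans the same log2 range but starts at its own level, and the groups overlap in all 9 panels.

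Of the ligands, Bdnf had the smallest unadjusted p of the 9 genes. BDNF is made by a part of the sensory neurons themselves as well as by other cells, and it is the ligand of TrkB. Bdnf measured 7.83, 7.75, 7.77 and 7.73 in HDACi replicates 1 to 4, and 7.83, 7.82, 7.88 and 8.03 in vehicle replicates 1 to 4 (log2). HDACi replicates 2 to 4 lay below every vehicle array, and HDACi replicate 1 lay within the vehicle range. The group means were 7.77 ± 0.04 and 7.89 ± 0.10 (SD, n = 4 each), a difference of -0.12 ± 0.06 (SE, 95% interval -0.25 to 0.01). The unadjusted limma p was 0.0629 and the exact permutation p, two-sided over the 70 ways to split the arrays, was 0.0571, where 0.0286 is the smallest this design allows. Vehicle replicate 4, the highest array, carried part of the difference, which was -0.074 without it. Without HDACi replicate 4, the lowest array, the difference was -0.108. It was -0.184 without vehicle replicates 1 and 2 (limma, adjusted p = 0.917). Leaving out single arrays gave -0.143 to -0.074.

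GDNF, the ligand of GFRα1 and RET, is made by Schwann cells and by peripheral targets. Gdnf measured 7.71, 7.78, 7.86 and 7.89 in HDACi replicates 1 to 4 and 7.73, 7.51, 7.74 and 7.85 in vehicle replicates 1 to 4. Vehicle replicate 2 was the lowest array, and HDACi replicates 3 and 4 lay slightly above every vehicle array. The means of 7.81 ± 0.08 and 7.71 ± 0.14 differed by 0.10 ± 0.08 (SE, 95% interval -0.08 to 0.27), with an unadjusted limma p of 0.231. Without vehicle replicate 2 the difference was 0.033, and without vehicle replicate 4 it was 0.146, the ends of the range over single arrays left out. Both ligand genes gave signals below the median probe set (percentiles 45.0 for Bdnf and 43.8 for Gdnf), a range in which RMA compresses differences, and percentiles also depend on the probes.

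The neurotrophin receptors showed no difference beyond the spread between arrays. Ntrk2, whose TrkB protein marks a class of touch receptors among sensory neurons and is also present on glia in a form without the kinase, measured 10.34, 10.40, 10.41 and 10.004 in HDACi replicates 1 to 4. In vehicle replicates 1 to 4 it measured 10.15, 10.34, 10.41 and 10.45. HDACi replicate 4 lay lowest of all and vehicle replicate 1 next to it, while the other 6 arrays lay within 10.34 to 10.45. The difference was -0.05 ± 0.10 (SE, 95% interval -0.29 to 0.18, exact permutation p = 0.571), and without HDACi replicate 4 it was 0.04.

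Ntrk3 encodes TrkC, the receptor of neurotrophin 3, which is typical of proprioceptors. Its level was 10.88, 10.92, 10.84 and 10.65 in HDACi replicates 1 to 4 and 10.89, 10.85, 10.90 and 10.84 in vehicle replicates 1 to 4. Again HDACi replicate 4 was the lowest array, and the vehicle arrays were tight, with an SD of 0.03. The difference was -0.05 ± 0.06 (SE, 95% interval -0.19 to 0.10, exact permutation p = 0.657), and 0.011 without HDACi replicate 4. Ngfr, the p75 receptor of sensory neurons and Schwann cells, varied little. It measured 11.92, 11.82, 11.89 and 11.92 in HDACi replicates 1 to 4 and 11.86, 11.86, 11.81 and 11.96 in vehicle replicates 1 to 4. Vehicle arrays held both its lowest and its highest value, and the difference was 0.02 ± 0.05 (SE, 95% interval -0.10 to 0.13, exact permutation p = 0.743).

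Among the GDNF family receptors, Ret and Gfra3 were lower in HDACi than in 3 of the 4 vehicle arrays. RET is the signalling subunit shared by all coreceptors of the family. Ret measured 11.49, 11.34, 11.43 and 11.26 in HDACi replicates 1 to 4 and 11.33, 11.64, 11.59 and 11.60 in vehicle replicates 1 to 4. Vehicle replicates 2, 3 and 4 lay above every HDACi array, and vehicle replicate 1 lay within the HDACi range. The means of 11.38 ± 0.10 and 11.54 ± 0.14 differed by -0.16 ± 0.08 (SE, 95% interval -0.34 to 0.02), or 0.895-fold, with an unadjusted limma p of 0.0819 and an exact permutation p of 0.143. Without vehicle replicate 1 the difference was -0.23 (limma, adjusted p = 0.809). Leaving out any other array gave -0.198 to -0.119. Over all 19 alternative settings the adjusted p of Ret lay between 0.701 and 1.0.

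GFRα3, the coreceptor of artemin, is found on peptide-containing nociceptors. Gfra3 was nearly constant in HDACi, at 11.57, 11.59, 11.60 and 11.55 in replicates 1 to 4, and spread widely in vehicle, at 11.34, 11.72, 11.81 and 11.86. Vehicle replicate 1 lay below all HDACi arrays and the other 3 vehicle arrays lay above them. The SD was 0.02 in HDACi and 0.24 in vehicle, and the difference was -0.11 ± 0.10 (SE, 95% interval -0.34 to 0.13, exact permutation p = 0.400). It was -0.22 without vehicle replicate 1 (limma, adjusted p = 0.809) and -0.26 without vehicle replicates 1 and 2, those with the highest muscle scores (limma, adjusted p = 0.917). It was smaller, -0.063 and -0.047, without vehicle replicate 3 or 4, the highest arrays. With the muscle score as a covariate it was -0.32, and with a score of neuronal genes, described below, 0.032. Over the 19 alternative settings the adjusted p of Gfra3 lay between 0.710 and 1.0. Part of this pattern moved with vehicle replicate 1, the array with the highest muscle score, and the part of muscle tissue in it was not tested.

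The remaining coreceptors gave no separation either. Gfra1, the coreceptor of GDNF itself, measured 12.93, 12.87, 12.92 and 12.82 in HDACi replicates 1 to 4 and 12.79, 12.89, 12.93 and 12.93 in vehicle replicates 1 to 4. Its means were equal at 12.88, with a difference of 0.00 ± 0.05 (SE, 95% interval -0.11 to 0.11, exact permutation p = 1.0) and the smallest range of the 9 genes, 0.14. Gfra2, the coreceptor of neurturin, had the largest range, 0.57. It measured 10.45, 10.47, 10.86 and 10.92 in HDACi replicates 1 to 4 and 10.68, 10.35, 10.63 and 10.39 in vehicle replicates 1 to 4. HDACi replicates 3 and 4 lay above every vehicle array, and HDACi replicates 1 and 2 lay among the vehicle arrays. The difference was 0.16 ± 0.13 (SE, 95% interval -0.13 to 0.46, exact permutation p = 0.286). It was 0.082 without HDACi replicate 4 and 0.24 without HDACi replicate 1, the ends of the range over single arrays left out.

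**Figure D2:**
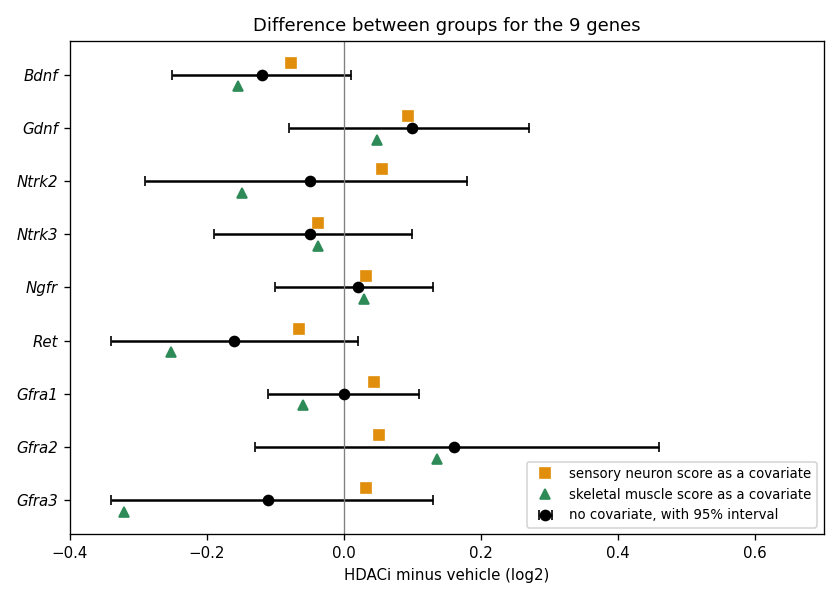
Difference between HDACi and vehicle (log2) for the 9 genes, with black points and bars for the limma estimate and its 95% interval without a covariate. Orange squares give the estimate with the sensory neuron score as a covariate and green triangles that with the skeletal muscle score. All 9 intervals include 0, and Gfra3 lies at -0.32 with the muscle score and at 0.03 with the neuron score.

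A single array held many of the extremes. HDACi replicate 4 was the lowest of the 8 arrays for Bdnf, Ntrk2, Ntrk3 and Ret and the highest for Gdnf and Gfra2, so it was extreme in 6 of the 9 genes. Vehicle replicate 4 was the highest for Bdnf, Ntrk2, Ngfr and Gfra3. HDACi replicate 4 also had the lowest score of myelinating Schwann cells (8 of 10 genes, -0.26, against -0.06 to 0.18 elsewhere), the highest macrophage score and the highest fibroblast score, and the part of these cells in its values was not tested. Without this array 3 of the 9 genes, in place of 6, were lower in HDACi. Ntrk2, Ntrk3 and Gfra1 changed sign, Gfra1 only from 0.00 to 0.021. For their level, Gfra2, Gfra3 and Ntrk2 were variable genes. Their residual SDs of 0.21, 0.17 and 0.17 exceeded those of 92.4%, 91.6% and 87.5% of the 1000 probe sets nearest in mean signal. Bdnf (19.1%), Ngfr (27.2%) and Gfra1 (37.7%) were steady by the same measure.

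Of the relations with marker scores, those of Gfra3 and Ret with sensory neurons were the closest, and none passed adjustment. The neuron score, the mean over 18 of 20 listed neuronal genes, was -0.02, -0.02, -0.03 and -0.10 (log2) in HDACi replicates 1 to 4 and -0.14, 0.09, 0.05 and 0.17 in vehicle replicates 1 to 4. Of these 18 genes, 16 were lower in HDACi, against 46.7% of all probe sets. An unadjusted limma p under 0.05 came for 1 of them, against 3.55% of all probe sets. Other marker lists were also one-sided. All 17 skeletal muscle genes were lower in HDACi, and all 12 macrophage genes and all 9 of fibroblasts and meninges were higher. The 18 neuronal genes did not contribute evenly. Scn10a measured 10.06 in vehicle replicate 4 and between 8.24 and 8.74 in the other arrays, and the score was not computed without it. Vehicle replicates 2 to 4 lay above every HDACi array in this score and vehicle replicate 1 lay below them, as they did for Gfra3. Across the 8 arrays the score correlated with Gfra3 at r = 0.92 (exact permutation p = 0.00193, rho = 0.88, p = 0.00724) and with Ret at r = 0.88 (exact permutation p = 0.00375, rho = 0.93, p = 0.00223). Among the 36 relations of 9 genes with 4 marker scores, the adjusted p was 0.0674 for both values of r, and 0.130 and 0.0804 for the values of rho, so neither passed. Without the 2 arrays farthest from the median score, vehicle replicates 1 and 4, r was 0.81 for Gfra3 and 0.94 for Ret. After the group means were taken off, r was 0.91 and 0.85.

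Bdnf (r = 0.74, rho = 0.52), Gfra1 (r = 0.74, rho = 0.67) and Ntrk2 (r = 0.73, rho = 0.69) leaned the same way, with an adjusted exact permutation p of 0.178 for each r and of 0.802, 0.598 and 0.598 for rho. Gfra2 leaned the other way (r = -0.67, exact permutation p = 0.0690, rho = -0.83, p = 0.0154), with adjusted values of 0.276 and 0.185. Glial scores gave relations of like size. The score of myelinating Schwann cells correlated with Ntrk3 at r = 0.76 (exact permutation p = 0.0255, rho = 0.45, p = 0.267) and with Gfra2 at r = -0.76 (exact permutation p = 0.0294, rho = -0.60, p = 0.132), and that of satellite glia (8 of 10 genes) with Gdnf at r = 0.78 (exact permutation p = 0.0378, rho = 0.36, p = 0.389). Their adjusted p was 0.178 for r and at least 0.794 for rho. Without the 2 arrays farthest from the median of the score, r was 0.35, -0.56 and 0.00. For the neuron score, leaving out vehicle replicates 1 and 4 gave r = 0.76 for Bdnf, 0.53 for Gfra1, 0.64 for Ntrk2 and -0.71 for Gfra2. With the neuron score as a covariate the difference between groups was -0.065 for Ret, 0.032 for Gfra3, 0.055 for Ntrk2, 0.044 for Gfra1, 0.051 for Gfra2 and -0.077 for Bdnf, and only Ret, Bdnf and Ntrk3 were then below 0. The part of neuronal content in these values was not tested.

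**Figure D3:**
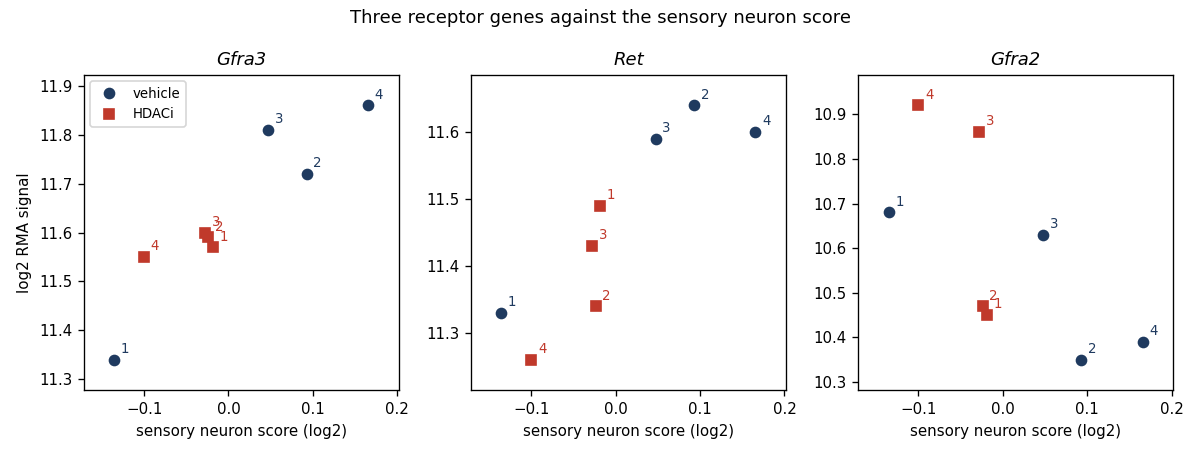
Log2 RMA signal of Gfra3, Ret and Gfra2 against the sensory neuron score (mean of 18 genes, each relative to its mean over all arrays, log2), 1 point per array with its replicate number, vehicle as dark blue circles and HDACi as red squares. Gfra3 (r = 0.92) and Ret (r = 0.88) tend to be higher where the score is higher, and Gfra2 (r = -0.67) lower.

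Correlations between the 9 genes across the arrays did not pass adjustment. Of the 36 pairs of the 9 genes, 22 had an r above 0, and r ran from -0.66 to 0.82. Ret and Gfra3, whose start regions are printed above, correlated at r = 0.78 (exact permutation p = 0.0203, rho = 0.83, p = 0.0154), and at 0.88 without HDACi replicate 4 and vehicle replicate 2, the arrays farthest from the median of Ret. Ntrk2 and Gfra1 reached r = 0.82 (exact permutation p = 0.0215, rho = 0.57, p = 0.151), but 0.23 without HDACi replicate 4 and vehicle replicate 1, so this relation rested on those arrays. So did Ntrk2 and Ret (r = 0.70, exact permutation p = 0.0433, rho = 0.64, p = 0.0962), with r = -0.01 without the same arrays, and Gfra1 and Gfra3 (r = 0.77, exact permutation p = 0.0257, rho = 0.60, p = 0.132), with r = 0.37. Bdnf and Ret gave r = 0.67 (exact permutation p = 0.0448, rho = 0.57, p = 0.151), and 0.57 without HDACi replicate 4 and vehicle replicate 4. Ret and Gfra1, a receptor and the coreceptor through which GDNF engages it, gave r = 0.75 (exact permutation p = 0.0362, rho = 0.64, p = 0.0962), and 0.81 without the 2 arrays left out for Ret. In 6 pairs r had an unadjusted p under 0.05 and in 0 pairs after adjustment over the 36, where the smallest adjusted p was 0.269 for r. The adjusted p of rho for these 6 pairs lay between 0.185 and 0.513. By rank the closest pair was another, Ntrk2 and Gfra3 (rho = 0.90, exact permutation p = 0.00456, adjusted p = 0.164). Its r was 0.65, and 0.59 without HDACi replicate 4 and vehicle replicate 1. Ret and Gfra2 gave rho = -0.83 (exact permutation p = 0.0154, adjusted p = 0.185), with r = -0.66, and -0.30 without the 2 arrays left out for Ret.

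The wider pathway gave little more. Of 117 other genes listed for neurotrophin and GDNF signalling, 95 had a probe set of their own. By limma 0 of these passed an adjusted p of 0.05, and 3 (3.16%, against 3.55% of all probe sets) passed an unadjusted p of 0.05, 2 higher and 1 lower in HDACi. Of the 95, 37.9% were lower in HDACi and the median difference was 0.019. The 3 were Npy, the gene of a neuropeptide that injured sensory neurons make (-0.13 ± 0.05, SE), Junb, a transcription factor of the immediate early response (0.19 ± 0.08), and Sh2b3, an adaptor that restrains receptor signalling (0.12 ± 0.05), each with an adjusted limma p of 1.0. Npy measured 13.32, 13.27, 13.36 and 13.29 in HDACi replicates 1 to 4 and 13.35, 13.45, 13.48 and 13.48 in vehicle replicates 1 to 4. Vehicle replicate 1 alone lay within the HDACi range.

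Ligands and partners of the receptors described above were as close between the groups. Artn, the ligand of GFRα3, differed by 0.09 ± 0.09 (SE), and Nrtn, the ligand of GFRα2, by -0.07 ± 0.10. Pspn, the ligand of GFRα4, differed by -0.04 ± 0.07, and Gfra4 by -0.01 ± 0.06. Ntf3, the ligand of TrkC, differed by -0.01 ± 0.10, and Ntf4, a second ligand of TrkB, by 0.13 ± 0.09. Sort1, whose protein sortilin joins p75 in binding the precursors of neurotrophins, differed by 0.01 ± 0.05. The unadjusted limma p of these 7 genes lay above that of Bdnf in every case, with the smallest, 0.190, for Ntf4. By list, the median difference was 0.032 over 12 other ligands and processing enzymes (6 lower in HDACi), -0.007 over 11 other receptors and coreceptors (6 lower) and 0.014 over 40 adaptors and signalling enzymes (17 lower). It was 0.019 over 15 feedback inhibitors (3 lower) and 0.07 over 17 genes induced by such signalling (4 lower), where 46.7% of all probe sets were lower.

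**Figure D4:**
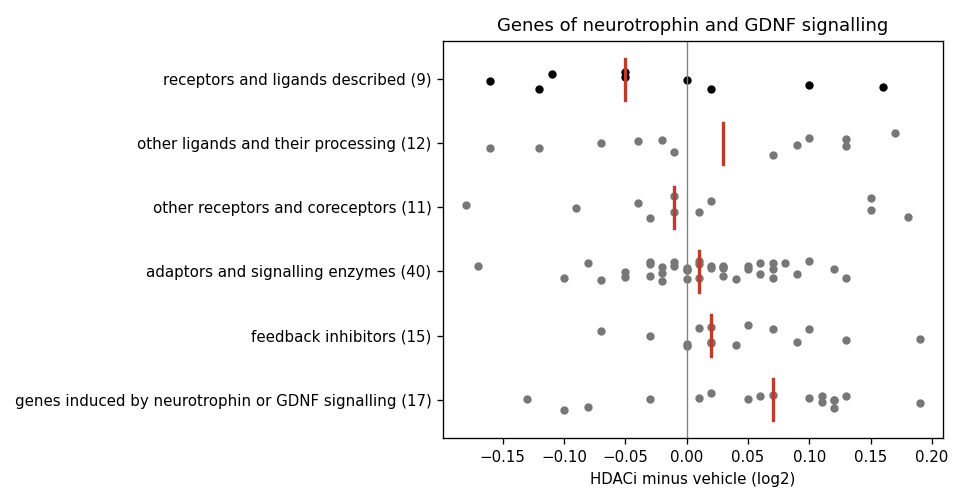
Difference between HDACi and vehicle (log2) for each of the 9 genes in black and for 5 lists of other pathway genes in grey, 1 point per gene, spread vertically only to be seen, with the number of genes in brackets and a red tick at each median. All points lie between -0.18 and 0.19.

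The genes most like each receptor or ligand across the 8 arrays were found among 14488 other genes by Pearson's r, as a description. With so few arrays high values were common, and between 6 genes (Ngfr) and 211 genes (Ret) reached an r over 0.9. Nearest to Ret were Dnm3, which encodes a dynamin (r = 0.989), and Reep1, which shapes the endoplasmic reticulum of neurons (r = 0.986). Gfra3 was followed by Apba1, an adaptor of neuronal vesicle traffic (r = 0.972), and the transcriptional repressor Bcl6 (r = 0.972). Nearest to Gfra2 were the transcription factor Foxs1 (r = 0.981) and Spry1 (r = 0.975), a feedback inhibitor of receptor tyrosine kinases that was on the pathway lists. Spry1 measured 10.28, 10.23, 10.50 and 10.60 in HDACi replicates 1 to 4 and 10.41, 10.22, 10.34 and 10.24 in vehicle replicates 1 to 4, so that, like Gfra2, it was highest in HDACi replicates 4 and 3 and lowest in vehicle replicate 2. Bdnf was closest to Nptx2, a secreted synaptic pentraxin (r = 0.977), and to Noct (r = 0.971). For the others the 2 nearest genes were Vsig2 and Clps (Ntrk2, r = 0.979 and 0.977), Dennd11 and Azgp1 (Ntrk3, 0.976 and 0.972), Nova1 and Or52e8 (Ngfr, 0.959 and 0.929), Spag11b and Tesk1 (Gfra1, 0.995 and 0.987), and Mpc1l and Fcna (Gdnf, 0.977 and 0.968).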

How the data were processed

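RNA from 4 HDACi-treated and 4 vehicle-treated rats was hybridized by the authors to Affymetrix Rat Gene 1.0 ST arrays, and groups and replicate numbers came from the sample labels. The deposited values are on a log2 scale after RMA (oligo package, versions not given in the sources used here), which brings the arrays to almost equal distributions and hides any shift common to all genes. Array medians lay between 8.13 and 8.16, and precision is limited by the 4 arrays per group. The limma p-values set each difference against the spread between these samples only, with variances moderated across all probe sets. Of 28826 probe sets, 15209 carried 1 gene symbol in the platform annotation, checked against RefSeq GRCr8. Of a gene's probe sets the one with the highest mean was used. HDACi was set against vehicle with the limma package (version 3.58.1, R 4.3.3, lmFit and eBayes), without covariates, and two-sided p-values were adjusted by Benjamini-Hochberg across the whole table. The script was tested on simulated data. Correlations used exact permutation of all 40320 pairings in Python 3.11.15. Named were the 9 genes, their direct ligands and partners, other pathway genes past an unadjusted p of 0.05 (at most 10), up to 3 genes per marker list with the highest mean, and the 2 genes most like each member. The genes, lists and tests were chosen with earlier results of these data known. Spry1, given array by array, was chosen after its values were seen. Alternatives were the replicate block, a filter on dim probe sets (30th percentile), probe sets with 1 symbol, other scalings, other variance models, marker scores as covariates and each array left out. The set without vehicle replicates 1 and 2 was added after the data were seen.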

Additional observations from a re-analysis of the deposited data

Results flagged for a closer look

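In 2 of the 18 groups of 4 arrays (9 genes, 2 treatments), 1 array lay far from the others by Dixon's test, where chance gives about 1 in 20, or 0.9. Ntrk2 measured 10.004 (log2) in HDACi replicate 4, and the nearest HDACi array measured 10.34. Ret measured 11.33 in vehicle replicate 1, and the nearest vehicle array measured 11.59.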

How the results depend on the processing

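No alternative brought any of the 9 genes past the adjusted threshold, and the smallest adjusted limma p was 0.701. Of 171 refits (19 settings), 158 kept the direction and 13 turned it, most of these for Gfra1, whose difference was near 0. An unadjusted limma p under 0.05 came in 9 refits, all for Bdnf, Ret or Gfra3. These 9 are 5.26% of the refits over all 19 settings. They came from only 6 of the settings, in which 3.86% to 7.09% of all probe sets (1114 to 2045) fell under the same limma threshold. The shares cover different settings, so they do not place the 9 genes at the rate of all probe sets. Within those 6 settings alone the share of the 9 genes was higher than 5.26%. With the neuron score as a covariate Ntrk2 became 0.055, Gfra1 0.044 and Gfra3 0.032, and Gfra1 was 0.00 after a further quantile normalization and 0.003 after cyclic loess. Leaving out 1 array at a time gave -0.117 to 0.04 for Ntrk2, -0.079 to 0.011 for Ntrk3, -0.004 to 0.045 for Ngfr, -0.032 to 0.021 for Gfra1 and -0.22 to -0.047 for Gfra3. With the neuron score 3 of the 9 genes were lower in HDACi and their median was 0.032, and leaving out single arrays gave 3 to 6 lower genes, 3 without HDACi replicate 4. Probe sets past an unadjusted p of 0.05 numbered 567 among those with 1 symbol, where fewer were tested, 2045 with array weights, 1714 with the neuron score, and 708 to 1758 without single arrays, 1758 without vehicle replicate 1. The cause of these shifts was not tested. Same-numbered arrays deviated from their group means at r between -0.282 and 0.014, so no shared deviation was seen. These values cannot tell whether same-numbered samples were processed together. With the replicate block 803 probe sets passed an unadjusted p of 0.05 against 1022, 0 passed the adjusted threshold in either fit, and 6 of the 9 genes were lower, with a median of -0.047. Each gene had 1 probe set, so averaging probe sets changed nothing.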
